A study of Mus musculus with 6 samples.

Results

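In primary tumors, 10 genes of tumor-associated macrophages were followed: *Csf1r*, *Csf1*, *Adgre1*, *Cd68*, *Trem2*, *Spp1*, *Apoe*, *C1qa*, *C1qb* and *C1qc*. They were chosen by symbol, as genes of macrophage identity, of the complement component C1q and of the lipid-associated macrophage state. They are called macrophage genes below, but bulk RNA does not show which cells made each transcript. All 10 were found among the 20076 genes of the deposited table, and all passed the filter on low values that kept 19667 genes for testing. Bulk RNA came from primary tumors of WT C57BL/6 hosts (3 tumors) and of *Tgm2* knockout hosts (3 tumors), taken 6 weeks after injection of ID8 *Trp53*-/- *Brca1*-/- cells into the ovarian bursa on both sides. Both host genotypes received the same mouse ovarian cancer line, which lacks *Trp53* and *Brca1* and was not edited at *Tgm2*, so the hosts alone differ in *Tgm2*. The study used young adult mice, and the labels give no age for single tumors. Values are estimated transcript counts that the authors summed to genes and scaled between tumors (normalized counts), and throughout they are listed in the order of tumors 1, 2 and 3. Column totals were 34801694, 35325875 and 33916288 for WT and 32316613, 35827822 and 37717165 for *Tgm2* knockout. Nothing states that each tumor came from a different mouse, so p-values measure only the spread between these tumors.

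Macrophages depend on the receptor CSF1R, which binds the growth factor CSF1 and is required for their survival and their differentiation from monocytes. Tumor macrophages commonly make C1q, the recognition molecule of the classical complement pathway, built from an A, a B and a C chain. Lipid-associated macrophages, described in fat tissue and in tumors, carry the lipid receptor TREM2 and make the lipid carrier apolipoprotein E and the matrix protein osteopontin, the product of *Spp1*. In bulk RNA, fewer macrophages and less RNA per macrophage cannot be told apart.

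The host genotype was checked first. *Tgm2* stood at 14978, 12155 and 13180 normalized counts in WT and at 5853, 6071 and 8157 in knockout tumors (limma: log2 fold change -1.02, adjusted p = 0.391), with no overlap between the groups. The labels call the cells cancer cells, but leukocyte transcripts were present in every tumor. *Ptprc*, the common leukocyte antigen CD45, ranged from 1583 to 3173 normalized counts. *Krt8*, a keratin of epithelial cells that does not separate the injected line from the host, ranged from 10373 to 21948. A pair of tumors stood apart in some transcripts of steroid-making ovarian cells. *Hsd3b1*, a steroidogenic enzyme, was at 5526 in WT tumor 1 and at 25704 in knockout tumor 1, against 1.07 to 68.1 elsewhere. *Cyp11a1*, which makes pregnenolone from cholesterol, was at 8648 and 22480 in this pair, against 158 to 209 elsewhere. Several other genes of the steroidogenic list, *Cyp17a1* and *Cyp19a1* among them, did not set WT tumor 1 apart: *Inha*, an inhibin chain, was lowest there at 2585, and *Star*, the cholesterol transporter, was at 5987 there against 8970.0 in WT tumor 2. Results for the macrophage genes are therefore also given without both tumors, called below the tumors with steroidogenic transcripts. This choice was made after seeing the data and leaves 2 tumors per group. The name is a short form, since the steroidogenic list summed to 7473 normalized counts or more in every tumor. WT tumor 1 was the highest WT tumor and knockout tumor 1 the lowest knockout tumor in all 10 macrophage genes. Their removal therefore raises each log2 fold change by construction.

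None of the 10 genes passed the limits in limma (adjusted p under 0.05 and a log2 fold change of at least 1 in size). Over all 19667 genes, 0.102% passed with higher values in *Tgm2* knockout tumors and 0% with lower values. At an unadjusted p under 0.05, 0 of the 10 genes were called, beside 5.78% of all genes (3.4% higher and 2.38% lower). WT and knockout values overlapped in all 10, whereas 10.5% of all genes had groups without overlap (5.18% higher and 5.33% lower). Log2 fold changes ran from -0.15 for *Trem2* to 0.71 for *Csf1r*, with a median of 0.39 beside -0.03 over all genes tested. They were above 0 for 8 of 10 genes, with *Spp1* falling below 0 after quantile normalization or column sum scaling. They were below 0 for 10 of 10 once the average level of fat cell markers was added to the model. Those markers were themselves higher in knockout tumors (median log2 fold change 2.07), so that model separates genotype from fat content poorly. The 95% interval held 0 for each of the 10 genes and still held a log2 fold change of 1 for 7 of them and of -1 for 2, *Trem2* and *Spp1*.

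**Figure D1:**
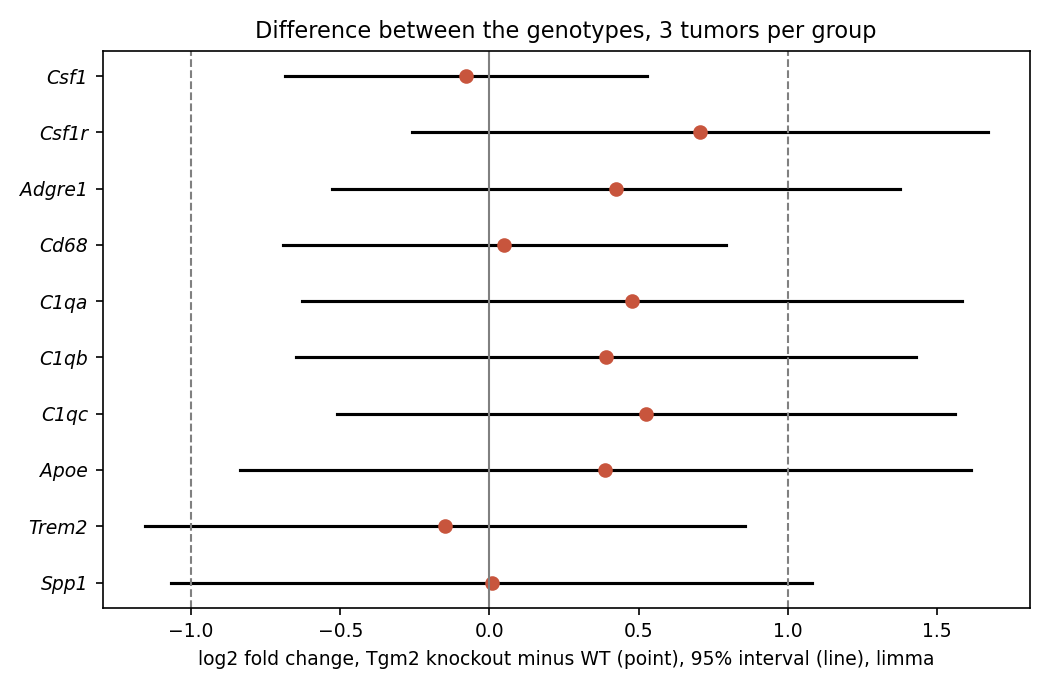
The log2 fold change of each macrophage gene (horizontal axis, *Tgm2* knockout minus WT) is plotted as a point with its 95% interval from limma as a line, for 3 tumors per group. The solid line marks 0 and the dashed lines mark -1 and 1. Every interval crosses 0, and the highest point is *Csf1r* at 0.71.

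The growth factor and its receptor were examined next. *Csf1r* stood at 8023, 3767 and 3212 normalized counts in WT and at 4417, 9648 and 9880 in knockout tumors. WT tumor 1 lay nearer to knockout tumors 2 and 3, and knockout tumor 1 lay nearer to WT tumors 2 and 3, so the groups overlapped. Means were 5000 ± 2633 for WT and 7982 ± 3089 for knockout (SD, n = 3 each; limma: log2 fold change 0.71, SE 0.42, adjusted p = 0.891). Leaving out 1 tumor moved this value between 0.45 (without WT tumor 3) and 1.11 (without WT tumor 1). Without both tumors with steroidogenic transcripts it was 1.49 (limma, adjusted p = 0.253). *Csf1* stood at 4709, 3439 and 2781 in WT and at 2531, 3889 and 3881 in knockout tumors (limma: log2 fold change -0.08, SE 0.27, adjusted p = 0.974). Its highest tumor was WT tumor 1 and its lowest was knockout tumor 1. *Il34*, the other ligand of CSF1R, ranged from 866 to 1452 normalized counts, with overlapping groups (limma: log2 fold change -0.14, adjusted p = 0.945). Among 14 genes of the CSF1R axis and of other myeloid growth factors, 0 passed the limits in either direction, and the median log2 fold change was 0.09. The most abundant of them were the signaling adaptor gene *Grb2*, *Pik3r1*, for a subunit of PI3-kinase, and *Sdc1*, for a cell-surface proteoglycan, with log2 fold changes of 0.03, 0.55 and -0.13. *Csf3r*, the receptor for G-CSF, was the only one at an unadjusted p under 0.05 (limma: log2 fold change 0.90, adjusted p = 0.859).

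Surface and lysosomal markers divided the tumors in a similar way. *Adgre1*, which encodes the surface protein F4/80, stood at 3067, 1860 and 1277 normalized counts in WT and at 1517, 4039 and 2874 in knockout tumors (limma: log2 fold change 0.42, SE 0.42, adjusted p = 0.909). *Cd68*, for a glycoprotein of macrophage lysosomes, stood at 2355, 1674 and 1321 in WT and at 1162, 2441 and 2033 in knockout tumors (limma: log2 fold change 0.05, SE 0.32, adjusted p = 0.986). For *Cd68* the knockout tumors held both the highest and the lowest value. Without both tumors with steroidogenic transcripts, *Adgre1* had a log2 fold change of 1.14 and *Cd68* one of 0.58 (limma, adjusted p = 0.412 and 0.694). Leaving out 1 tumor at a time gave 0.11 (without knockout tumor 2) to 0.81 (without knockout tumor 1) for *Adgre1*, and -0.17 to 0.36 for *Cd68* (without the same tumors).

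Of 22 further genes of macrophage identity, 0 passed the limits, 17 had a log2 fold change above 0 and 5 below 0, and the median was 0.35. *Lyz2*, encoding lysozyme, and the protease genes *Ctss* and *Lgmn* were the most abundant, with log2 fold changes of 0.22, 0.65 and -0.06. *Cd163*, the hemoglobin scavenger receptor, had the smallest p and stood at 121, 53.7 and 66.1 normalized counts in WT and at 180, 420 and 315 in knockout tumors. Each knockout tumor exceeded each WT tumor in this gene, but it did not pass adjustment (limma: log2 fold change 1.91, adjusted p = 0.566). *Mertk*, a receptor for apoptotic cells, was also at an unadjusted p under 0.05, with a log2 fold change of 0.79 and overlapping groups.

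**Figure D2:**
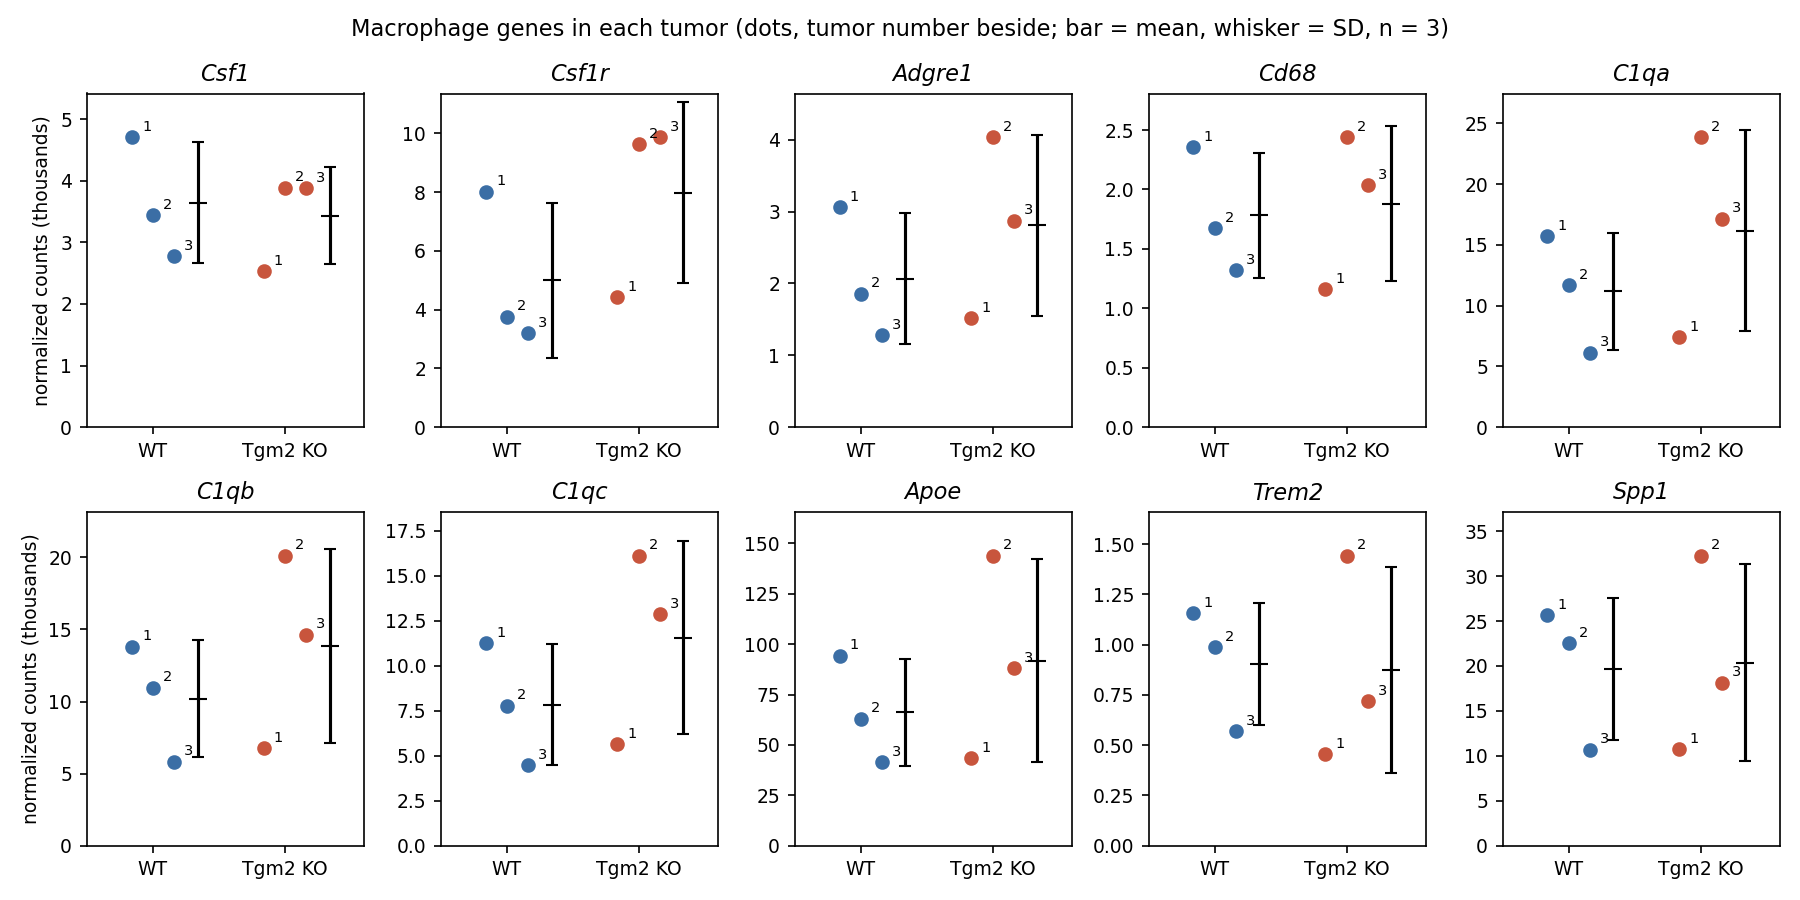
Normalized counts (vertical axis in kilocounts, starting at 0 and different in each panel) are plotted for each macrophage gene in WT (blue) and *Tgm2* knockout (red) tumors. Each dot is 1 tumor with its number, and bars and whiskers give the mean and SD of 3 tumors. WT tumor 1 is the highest WT tumor and knockout tumor 1 the lowest knockout tumor in all 10 genes, and the groups overlap in each.

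The 3 genes of C1q lie side by side on the minus strand of chromosome 4, within 18.7 kb of GRCm38: *C1qb* from 136880129 to 136886187, *C1qc* from 136889804 to 136893065 and *C1qa* from 136895917 to 136898803 (GENCODE M21). Promoter windows, 250 bases before to 50 bases after the annotated start, are shown for *C1qb* (chr4:136886151-136886450) and *C1qc* (chr4:136892865-136893164) because these neighbours varied alike from tumor to tumor. They are from RefSeq on GRCm38.p6, written 5′ to 3′ on the minus strand. Capitals mark the only match in each, to the PU.1-type ETS motif AGGAAGT read on the opposite strand.
C1qb: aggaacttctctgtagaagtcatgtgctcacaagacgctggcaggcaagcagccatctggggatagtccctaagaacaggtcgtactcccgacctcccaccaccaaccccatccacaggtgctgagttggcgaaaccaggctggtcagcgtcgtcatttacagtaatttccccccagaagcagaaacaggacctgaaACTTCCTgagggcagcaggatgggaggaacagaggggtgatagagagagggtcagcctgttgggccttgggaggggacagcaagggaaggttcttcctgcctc
C1qc: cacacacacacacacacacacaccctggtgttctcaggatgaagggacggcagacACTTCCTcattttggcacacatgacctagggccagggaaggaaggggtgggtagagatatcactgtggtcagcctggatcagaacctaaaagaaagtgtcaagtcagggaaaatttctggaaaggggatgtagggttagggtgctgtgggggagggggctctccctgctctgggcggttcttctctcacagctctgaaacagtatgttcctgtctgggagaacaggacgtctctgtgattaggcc
Counted from the RefSeq start, the match begins 53 bases before *C1qb* and 195 bases before *C1qc*; the RefSeq start of *C1qc* lies downstream of the GENCODE start printed above, so the match lies nearer to the latter. Windows were searched on both strands for 4 motifs, of which 2 had no match in the windows of the macrophage genes. One of these is not reported here, and the other motifs were AGGAAGT, the AP-1 motif TGANTCA and the MiT/TFE motif TCANGTGA, which also had no match. No matches overlapped one another. Among all 32851 windows of this length, 9.35% held AGGAAGT, 7.81% TGANTCA and 4.18% TCANGTGA. Windows were found for 7 of the 10 genes (all but *Csf1r*, *Adgre1* and *C1qa*), 10 windows in all, of which 5 held a match. A match describes letters and not binding.

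*C1qa* stood at 15742, 11663 and 6142 normalized counts in WT and at 7426, 23881 and 17155 in knockout tumors. *C1qb* stood at 13813, 10969.7 and 5834 in WT and at 6753, 20132 and 14635 in knockout tumors. *C1qc* stood at 11237, 7783 and 4480.1 in WT and at 5636, 16116 and 12869 in knockout tumors. For each chain knockout tumor 2 was highest and WT tumor 3 lowest, with knockout tumor 1 the next lowest. In limma, *C1qa* had a log2 fold change of 0.48 (SE 0.48, adjusted p = 0.909), *C1qb* one of 0.39 (SE 0.45, adjusted p = 0.919) and *C1qc* one of 0.53 (SE 0.45, adjusted p = 0.901). Without both tumors with steroidogenic transcripts these were 1.26, 1.10 and 1.29 (limma, adjusted p = 0.483, 0.549 and 0.417). Without WT tumor 3 alone they were 0.097, 0.031 and 0.17, and without knockout tumor 2 alone 0.12, 0.051 and 0.22.

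The proportions of the chains varied little. While *C1qa* differed 3.89-fold between its highest and its lowest tumor, the ratio of *C1qb* to *C1qa* varied 1.13-fold over the 6 tumors and that of *C1qc* to *C1qa* 1.14-fold. The log2 ratio of *C1qb* to *C1qa* was -0.12 ± 0.06 in WT and -0.20 ± 0.06 in knockout (SD, n = 3 each; two-sided exact permutation test, p = 0.2). That of *C1qc* to *C1qa* was -0.51 ± 0.07 and -0.46 ± 0.09 (SD, n = 3 each; two-sided exact permutation test, p = 0.5). Together the chains made up 0.117%, 0.0861% and 0.0485% of all normalized counts in WT and 0.0613%, 0.168% and 0.118% in knockout tumors.

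C1q acts with the proteases C1r and C1s and is held in check by the C1 inhibitor. Among 14 genes of the classical pathway and of C1q partners, 0 passed the limits in either direction, and the median log2 fold change was 0.15. *C3*, *Calr* and *C1s1* were the most abundant and encode the central complement component, calreticulin and C1s, with log2 fold changes of -0.17, 0.55 and -0.09. *C1ra*, for C1r, stood at 5412, 5203 and 3341 normalized counts in WT and at 5424, 6142 and 7034 in knockout tumors (limma: log2 fold change 0.44, adjusted p = 0.889). Its groups were apart by a narrow margin between WT tumor 1 and knockout tumor 1. *Serping1*, for the C1 inhibitor, and *C4b*, for complement component C4, were at an unadjusted p under 0.05 with log2 fold changes of 0.70 and 0.68 (limma, adjusted p = 0.848 and 0.819). *Masp2*, a protease of the lectin pathway, had the smallest p of the list but at most 6.12 normalized counts in WT tumors, and was listed at 0 in every knockout tumor.

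*Trem2* and *Spp1* were each other's nearest gene by pattern over the tumors, and their promoter windows are shown for this reason. Both are from RefSeq on GRCm38.p6, 5′ to 3′ on the plus strand: *Trem2* at chr17:48346151-48346450 and the first of its 2 windows for *Spp1* at chr5:104434861-104435160. Capitals mark the match to TGANTCA in *Trem2*, 9 bases before its start, and the match to AGGAAGT in *Spp1*, 112 bases before its start.
Trem2: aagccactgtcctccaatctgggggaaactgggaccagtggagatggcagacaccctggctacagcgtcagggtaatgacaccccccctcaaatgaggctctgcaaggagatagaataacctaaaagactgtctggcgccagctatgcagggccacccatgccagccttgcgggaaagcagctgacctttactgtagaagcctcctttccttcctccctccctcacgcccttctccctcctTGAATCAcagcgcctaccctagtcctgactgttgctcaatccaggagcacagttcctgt
Spp1: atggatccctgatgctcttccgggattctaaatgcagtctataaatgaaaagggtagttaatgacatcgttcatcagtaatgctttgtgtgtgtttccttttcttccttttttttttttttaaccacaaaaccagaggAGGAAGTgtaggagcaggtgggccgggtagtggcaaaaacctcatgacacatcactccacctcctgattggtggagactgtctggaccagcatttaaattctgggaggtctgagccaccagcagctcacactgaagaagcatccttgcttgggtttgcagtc
The motifs found in these windows were not shared by the pair. *Trem2* stood at 1155, 986 and 568 normalized counts in WT and at 456, 1443 and 721 in knockout tumors (limma: log2 fold change -0.15, SE 0.44, adjusted p = 0.968). The knockout tumors held both the highest and the lowest value. *Spp1* stood at 25664, 22514 and 10691 in WT and at 10708, 32293 and 18157 in knockout tumors (limma: log2 fold change 0.01, SE 0.47, adjusted p = 0.999). The sign for *Spp1* was negative after quantile normalization, after column sum scaling and with sample weights. Without both tumors with steroidogenic transcripts *Trem2* had a log2 fold change of 0.45 and *Spp1* one of 0.64 (limma, adjusted p = 0.844 and 0.793).

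*Apoe* ranked at place 20 of all genes by mean normalized count. It stood at 94334, 63060 and 41301 in WT and at 43359.8, 144032 and 88309.5 in knockout tumors (limma: log2 fold change 0.39, SE 0.54, adjusted p = 0.933). Knockout tumor 2 was highest and WT tumor 3 lowest, and without knockout tumor 2 the log2 fold change was -0.02. Without both tumors with steroidogenic transcripts it was 1.14 (limma, adjusted p = 0.700).

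Levels were compared between genes per kilobase of the longest protein-coding transcript. On this scale the mean normalized count over the 6 tumors was 56155 for *Apoe*, 13274 for *Spp1*, 13143 for *C1qa*, 11050.5 for *C1qb* and 8052 for *C1qc*. It was 1489 for *Cd68*, 1381 for *Csf1r*, 847 for *Csf1*, 816 for *Trem2* and 753 for *Adgre1*. *Apoe*, at 29333 or more per kilobase in each tumor, lay above *Spp1*, at 21429 or less. *C1qc*, at 3724 or more, lay above *Cd68*, at 1985 or less. The ranges of the other neighbours overlapped over the tumors. Within each tumor, however, *C1qa* exceeded *C1qb* and *C1qb* exceeded *C1qc* in 6 of 6 tumors, whereas *Spp1* exceeded *C1qa* in 3 of 6. From *Cd68* down to *Adgre1*, each gene exceeded the next in 4 or 5 of the 6 tumors.

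Of 22 further genes reported for lipid-associated macrophages, 0 passed the limits in either direction, and the median log2 fold change was 0.43. *Lgals1*, *Ctsb* and *Lpl*, which encode galectin 1, cathepsin B and lipoprotein lipase, were the most abundant, with log2 fold changes of 0.55, 0.05 and 0.48. *Gpnmb*, a glycoprotein of lipid-laden macrophages, and the tetraspanin gene *Cd9* had 0.84 and -0.58, with overlapping groups. *Cd36*, a receptor for fatty acids and oxidized lipoproteins, stood at 1995, 1464 and 672 normalized counts in WT and at 2540, 8781 and 5149 in knockout tumors. Its groups did not overlap, but it did not pass adjustment (limma: log2 fold change 1.96, adjusted p = 0.587). *Cd36* and *Fabp4*, the other gene of this list at an unadjusted p under 0.05, are also made by fat cells.

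In the TREM2 pathway, 0 of 13 genes passed the limits in either direction, and the median log2 fold change was 0.51. *Tyrobp*, the adaptor that carries the TREM2 signal, had a log2 fold change of 0.08. The kinase gene *Syk* and the phospholipase gene *Plcg2*, which act downstream, had 0.82 and 0.78 (limma, adjusted p = 0.789 and 0.804). *Adam10* and *Adam17*, sheddases of TREM2, had 0.18 and 0.12. Among 15 genes for receptors of apolipoprotein E and for cholesterol handling, 0 passed the limits in either direction, with a median of 0.11. The most abundant were *Soat1*, which esterifies cholesterol, the lysosomal cholesterol carrier gene *Npc2* and the receptor gene *Lrp1*, with 0.46, -0.28 and 0.26. *Nr1h3*, encoding the sterol sensor LXR alpha, stood at 214, 278 and 251 normalized counts in WT and at 335, 546 and 452 in knockout tumors, without overlap (limma: log2 fold change 0.82, adjusted p = 0.796). Of 9 osteopontin receptor genes, 0 passed the limits in either direction, and the median was -0.03. *Itgb1*, *Itgb5* and *Cd44* were the most abundant of these, with -0.03, 0.39 and 0.14. *Itga4*, an integrin chain of lymphocytes and monocytes, had the smallest p, also without overlap (limma: log2 fold change 1.09, adjusted p = 0.649).

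The order of the tumors was largely shared by the 10 genes. WT tumor 1 was the highest and WT tumor 3 the lowest of the WT tumors in 10 of 10, as in 16.3% of all genes. Knockout tumor 1 was the lowest of its group in 10 of 10, as in 35.2% of all genes, and 7.64% of all genes had both features. Knockout tumor 2 was the highest of all in 8 of 10, as in 12.5% of all genes. The exceptions were *Csf1r*, highest in knockout tumor 3, and *Csf1*, highest in WT tumor 1. The lowest tumor was WT tumor 3 or knockout tumor 1 in 10 of 10, as in 37.7% of all genes, and 6.47% of all genes combined this with knockout tumor 2 as the highest. These counts are a description, since the 10 genes share the same 6 tumors. The SD of log2 values within a group ran from 0.37 for *Csf1* to 0.79 for *C1qa*, with a median of 0.72 beside 0.45 over all genes tested. The highest tumor exceeded the lowest by 1.86-fold for *Csf1*, the least of the 10 genes, and by 3.89-fold for *C1qa*, the most.

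**Figure D3:**
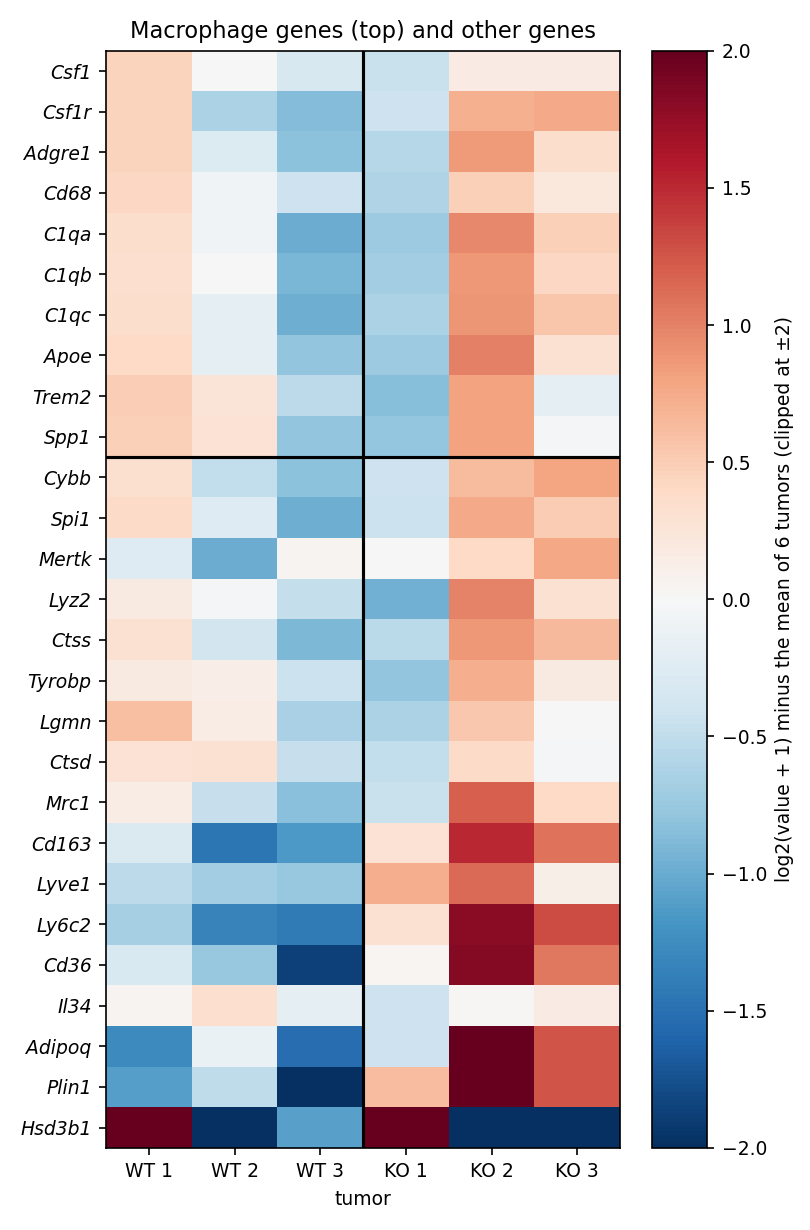
Each cell gives log2(value + 1) minus the mean of the 6 tumors (color scale, red above and blue below the mean, clipped at ±2), for the macrophage genes above the line and for further genes, chosen after their values were seen, below it. The macrophage genes are blue in WT tumor 3 and knockout tumor 1 and red in WT tumor 1 and knockout tumor 2; in knockout tumor 3 they are red except *Trem2* and *Spp1*.

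Likeness of pattern was measured as the root mean square difference between the centred log2 values of 2 genes over the 6 tumors, among 12992 genes with a mean of at least 100. For *Csf1r* the nearest genes were *Cybb* (0.089), *Hcls1* (0.10), *Sod3* (0.13), *Abi3* (0.13) and *Ncf1* (0.14), of which *Cybb* and *Ncf1* encode subunits of the phagocyte NADPH oxidase. For *C1qa* they were *C1qb* (0.066), *C1qc* (0.071), *Gna15* (0.12), *Apoe* (0.12) and *Mfap5* (0.13). For *Trem2* they were *Spp1* (0.13), *Ptprn*, *Snx31*, *Clec4n* and *Milr1*, and for *Spp1* they were *Trem2*, *Ifi204*, *Clec4n*, *Pilra* and *Lgmn*. For *Apoe* they were *Mfap5* (0.066), *Adgre1* (0.10), *Ms4a6d*, *C1qb* and *Ly86*. For *Csf1* they were *Il3ra* (0.054), *Abhd12*, *Gpc1*, *C1s1* and *Ppp1r18*. By this measure *Cd68* stood at place 74 from *Csf1*, and the other macrophage genes at places from 5322 (*Trem2*) to 8218 (*Csf1r*). Counted from *Csf1r*, *Csf1* stood at place 893, with *Spp1* (1471) and *Trem2* (2797) farther and the other macrophage genes nearer. The measure also depends on how widely a gene varies, and *Csf1* had the lowest SD within a group of the macrophage genes (0.37).

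To set each gene against the receptor that marks macrophages, it was divided by *Csf1r* within each tumor. Since *Csf1r* had the highest log2 fold change of the 10 genes, all 9 mean log2 ratios were lower in knockout than in WT tumors by construction, so that the shared direction is not a result. The tests below are given for the separate ratios as a description. The difference was largest for *Trem2*, with log2 ratios of -2.79, -1.93 and -2.50 in WT and of -3.27, -2.74 and -3.78 in knockout tumors. WT tumor 1 lay below knockout tumor 2, and the difference was -0.86 (two-sided exact permutation test, p = 0.2). For *Csf1* the log2 ratios were -0.77, -0.13 and -0.21 in WT and -0.80, -1.31 and -1.35 in knockout tumors, a difference of -0.78. For *Cd68* they were -1.77, -1.17 and -1.28 in WT and -1.93, -1.98 and -2.28 in knockout tumors, a difference of -0.66. These 2 of 9 ratios had groups without overlap (two-sided exact permutation tests, p = 0.1, which is the lowest value possible with 3 tumors in each group), beside 5.05% of all genes with a lower and 0.849% with a higher ratio to *Csf1r* without overlap. In both, WT tumor 1 lay close to knockout tumor 1. Over the 11 ratios computed, the smallest adjusted p of the exact permutation tests was 0.471. The ratios of *Spp1*, *Apoe* and *Adgre1* differed by -0.70, -0.32 and -0.28 and those of the C1q genes by -0.32 to -0.18, each with overlapping groups.

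**Figure D4:**
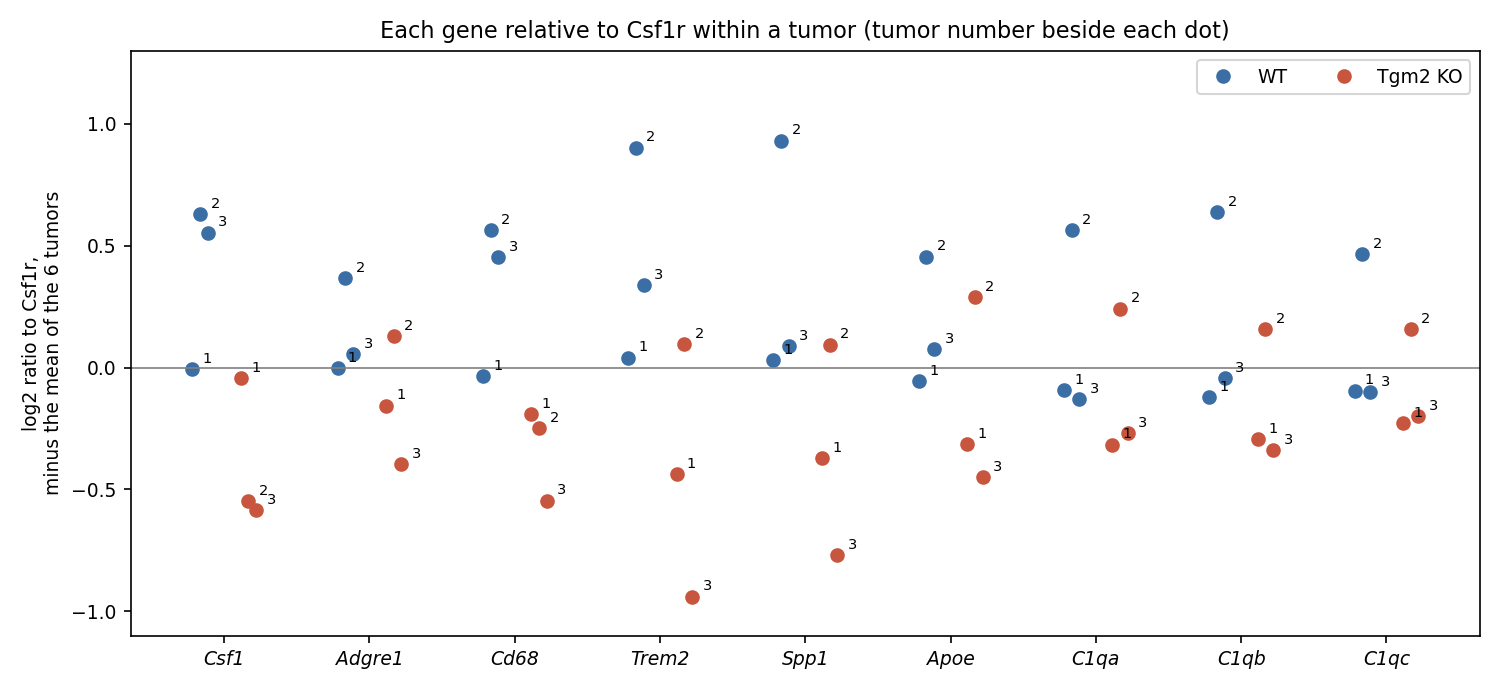
The log2 ratio of each gene to *Csf1r* in the same tumor, minus the mean of the 6 tumors (vertical axis), is plotted for WT (blue) and *Tgm2* knockout (red) tumors, with the tumor number beside each dot. The groups are apart for *Csf1* and *Cd68*, by a narrow margin, and overlap for the other 7 genes.

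Markers of other cells were set beside these genes. The 8 white adipocyte markers, with *Cfd*, *Fabp4* and *Adipoq* the most abundant, summed to 10967, 25141 and 9907 normalized counts in WT and to 19385, 115906 and 50678 in knockout tumors. Knockout tumor 2, the highest in 8 of the 10 macrophage genes, was also the highest in this sum, and none of the 8 markers was at 0 in any tumor. All 8 had a log2 fold change above 0, with a median of 2.07, and 1 of them, the leptin gene *Lep*, passed the limits. With the mean of these markers as a covariate, 8 of the 10 macrophage genes changed sign, all but *Csf1* and *Trem2*, which were already below 0. Log2 fold changes of all 10 genes then ran from -1.83 for *Trem2* to -0.19 for *Csf1r*, with none past the limits. The 7 genes of steroidogenic ovarian cells, with *Star*, *Cyp11a1* and *Hsd3b1* the most abundant and *Inha* of the smallest p, summed to 23074, 14815 and 7473 in WT and to 66306, 11211 and 12235 in knockout tumors. This sum was highest in knockout tumor 1, the lowest knockout tumor in all 10 macrophage genes, and *Cyp19a1* of this list was at 0 in knockout tumor 3. The part of fat and of ovarian tissue in the levels of the macrophage genes was not tested.

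Related myeloid cells were counted as well. The 6 neutrophil genes, with *Csf3r*, *S100a9* and *S100a8* the most abundant, summed to 450.3 to 937 normalized counts. *Ly6g* was at 0 in WT tumor 1 and knockout tumor 3. The neutrophil genes had a median log2 fold change of -0.35, with 1 above 0 (*Csf3r*) and 5 below 0, and 0 passed the limits. Their sum went the other way, at 514 ± 66 in WT and 744 ± 259 in knockout tumors (SD, n = 3 each), with overlapping groups. The 7 monocyte genes, with *Plac8*, *Ccr2* and *Vcan* the most abundant, had a median log2 fold change of 0.57 and 0 past the limits. They summed to 6849, 6495 and 8831 in WT and to 5676, 11531 and 7707 in knockout tumors, with overlap (two-sided exact permutation test, p = 0.8), and log2 fold changes of *Plac8* and *Vcan* were -1.02 and 0.16. *Ly6c2*, which marks inflammatory monocytes, stood at 399.9, 250.4 and 238 in WT and at 785, 2223 and 1563 in knockout tumors, without overlap (limma: log2 fold change 2.28, adjusted p = 0.212). The 6 genes of resident macrophages in the table summed to 3767, 3821 and 2763 in WT and to 4182, 4744 and 5247 in knockout tumors, without overlap (two-sided exact permutation test, p = 0.1), with 0 past the limits. Most of this sum was *Gata6*, a transcription factor of peritoneal macrophages, whose own groups overlapped (limma: log2 fold change 0.30, adjusted p = 0.898). Which cells made *Gata6* was not tested. *Timd4*, also in this list, ranged from 2.03 to 40.2 normalized counts, with overlapping groups (limma: log2 fold change 1.26, adjusted p = 0.896). *Folr2*, a folate receptor, had 0.58, and *Vsig4* and *Cd5l* had -0.30 and -0.35, all with overlapping groups. *Lyve1*, a hyaluronan receptor in this list, stood at 226, 202 and 193 in WT and at 539.5, 719 and 352 in knockout tumors (limma: log2 fold change 1.31, adjusted p = 0.566). *Mrc1*, for the mannose receptor CD206, had 0.77 with overlapping groups (limma, adjusted p = 0.889). Of 6 dendritic cell genes 4 were higher in knockout tumors without overlap (*Flt3*, *Xcr1*, *Clec9a* and *Cd209a*), beside 5.18% of all genes, and 0 passed the limits. The most abundant of this list, *Zbtb46* and *Ccr7*, overlapped, with log2 fold changes of -0.10 and 0.39. General leukocyte genes had a median log2 fold change of 0.51, with *Laptm5*, *Cd52* and *Coro1a* at 0.54, 1.22 and 0.41. T cell genes had a median of 0.99, with *Cd4*, *Cd3g* and *Cd3e* at 1.49, 0.94 and 1.03. B cell genes had a median of 2.03, with *Cd79a*, *Cd79b* and *Ms4a1* at 3.01, 1.20 and 2.12, and *Cd79a*, for a chain of the B cell receptor, passed the limits. The 4 osteoclast genes in the table had a median of 0.16, with *Acp5*, *Ctsk* and *Ocstamp* at 0.49, 0.078 and 0.24, and *Oscar* was at 0 in WT tumor 2 and knockout tumor 3. Epithelial or mesothelial genes had a median of -0.42, with *Wt1*, *Krt8*, *Krt19* and *Krt18* at 0.11, -0.43, -0.40 and -0.51. Fibroblast genes had a median of 0.63, with *Col3a1*, *Col1a1*, *Dcn* and *Lum* at 0.57, 0.63, 0.27 and 0.82. Endothelial genes had a median of 0.64, with *Pecam1*, *Cdh5* and *Kdr* at 0.47, 0.75 and 0.73.

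**Figure D5:**
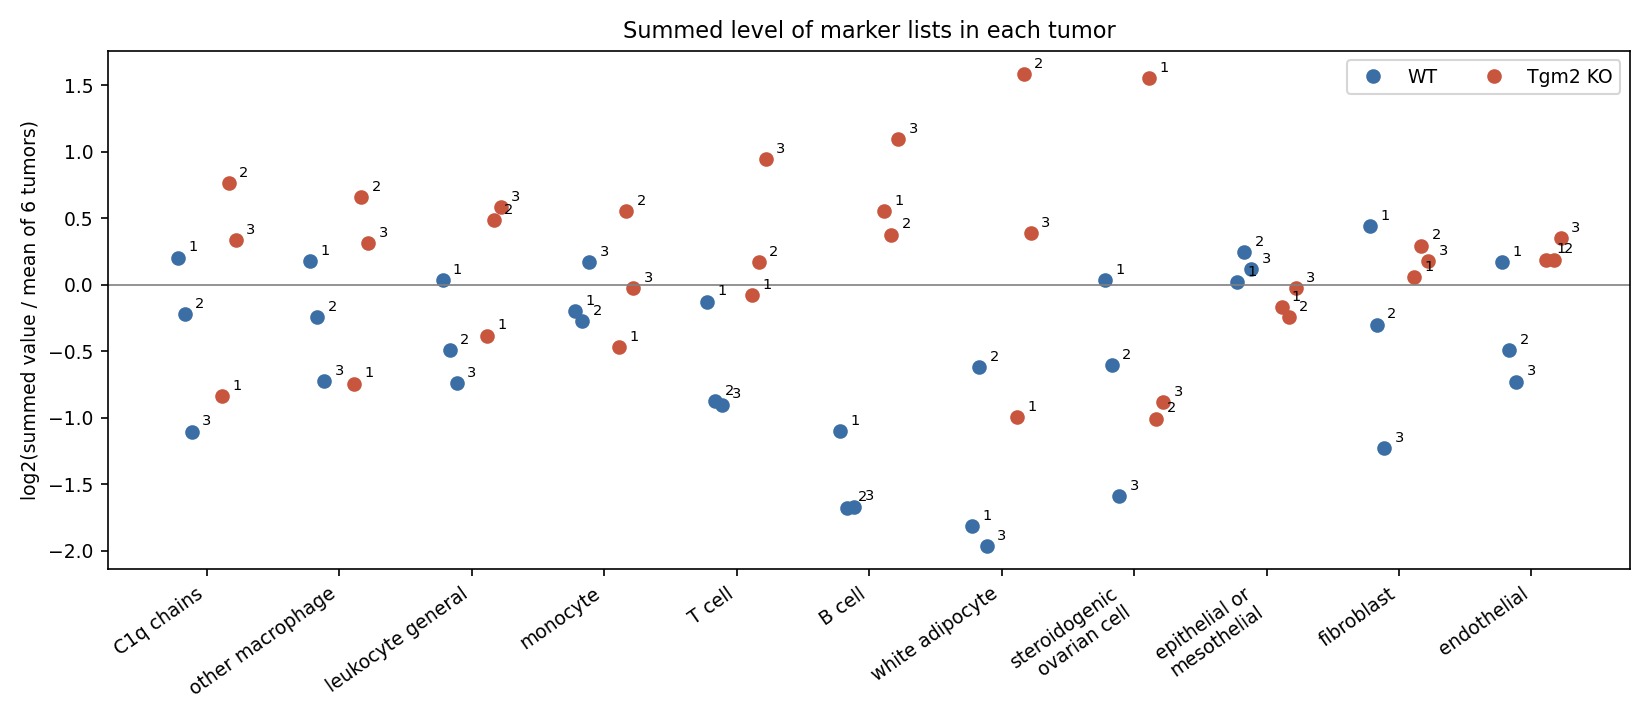
The summed level of each marker list relative to its mean over the 6 tumors (vertical axis, log2) is plotted for WT (blue) and *Tgm2* knockout (red) tumors, with the tumor number beside each dot. The C1q list and the list of other macrophage identity genes overlap between the genotypes, with WT tumor 3 and knockout tumor 1 low. The T cell, B cell and endothelial lists are higher and the epithelial or mesothelial list is lower in knockout tumors without overlap. The margin is narrow except for the B cell list. T cell sums were 1186 in WT tumor 1 and 1226 in knockout tumor 1. Endothelial sums were 6619 in WT tumor 1 and 6695 in knockout tumor 2. Epithelial or mesothelial sums were 70889 in WT tumor 1 and 68870 in knockout tumor 3.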

How the data were processed

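Bulk, polyA-enriched RNA of 6 primary tumors (3 WT, 3 *Tgm2* knockout) was grouped by genotype label, and table columns were assigned to tumors through the library names in the labels. Per the submitters' notes the authors used kallisto 0.46.2 and GRCm38; they summed transcripts to genes, removed genes of low expression (limit not given in the sources used here) and applied DESeq2 size factors. The table deposited by the authors is labelled TPM, but its columns sum to different totals, and its unit is treated as a signal (normalized counts). One read was worth 0.938 to 1.09 normalized counts, estimated from low values of genes with 1 transcript. The tests had been planned for TPM; limma 3.58.1 in R 4.3.3 was kept, on log2(value + 1), which understates changes of low genes, with a variance trend and no covariate, for genes of at least 1 in at least 3 tumors. P-values were two-sided and Benjamini-Hochberg adjusted over all genes. Positions and transcript lengths came from GENCODE M21, with 94.8% of symbols matched. The fit was tested on simulated data, with no outcome reported here. The genes, lists and tests were chosen with earlier results of these data known. Named were the 10 genes, *Tgm2*, *Ptprc*, and in each list the 3 most abundant genes, any past the limits and the one with the smallest p; any other was named after its values were seen. Alternatives changed the pseudocount, filter, scaling, replicate block, weights, trend, limits and covariate and left out tumors. Some items are not reported here.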

Additional observations from a re-analysis of the deposited data

How the results depend on the processing

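Over 18 alternatives for each macrophage gene, 0 of the 10 were past the limits, and the smallest adjusted p from limma was 0.253 (*Csf1r* without the 2 tumors with steroidogenic transcripts). The 10 genes were not called at the unadjusted limit as reported, but alternatives put some of them under it. With the adipocyte covariate these were *Trem2* and *Spp1* (lower). Without WT tumor 1 it was *Csf1r*, and without knockout tumor 1 *Csf1r* and *C1qc*. Without the 2 tumors with steroidogenic transcripts they were *Csf1r*, *Adgre1*, *C1qa*, *C1qb* and *C1qc*. Removing the highest WT tumor, the lowest knockout tumor or both raises each log2 fold change by construction. The calls made without these tumors are therefore not a result. With the adipocyte covariate the log2 fold changes that turned negative were -0.19 (*Csf1r*), -0.88 (*Adgre1*), -0.92 (*Cd68*), -1.75 (*Spp1*), -1.23 (*Apoe*), -1.27 (*C1qa*), -1.28 (*C1qb*) and -1.02 (*C1qc*), while the median of all genes moved from -0.03 to 0.083; the cause was not tested. The markers that make up this covariate were themselves higher in knockout tumors. *Spp1* was -0.0083 after quantile normalization, -0.014 with column sum scaling and -0.14 with sample weights, and *Cd68* was -0.021 with sample weights. Leaving out 1 tumor at a time gave -0.26 to 0.13 for *Csf1*, -0.59 to 0.24 for *Trem2*, -0.17 to 0.36 for *Cd68*, -0.40 to 0.40 for *Spp1*, -0.017 to 0.85 for *Apoe*, and -0.30 to 0.0079 for the ratio of *C1qc* to *Csf1r*. Without the 2 tumors with steroidogenic transcripts *Csf1* and *Trem2* were 0.33 and 0.45.

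Over all genes, 20 were higher and 0 lower past the limits. This became 5 higher with the replicate block, 4 without the variance trend and 0 with the adipocyte covariate. Without the 2 tumors with steroidogenic transcripts it was 13 higher and 1 lower. Leaving out any 1 tumor gave 2 to 14 higher and 0 to 1 lower. At an unadjusted p under 0.05 in limma, with the fold change limit kept, it was 491 higher and 305 lower. Without the fold change limit it was 668 higher and 469 lower. Deviations from the group means correlated across genes by -0.20, 0.28 and -0.31 between same-numbered tumors 1, 2 and 3, and by up to 0.36 between differently numbered ones, so the tumors were taken to share only a number; the replicate block left the 10 macrophage genes uncalled. Precision is limited by the few tumors sequenced.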
